A study of Mus musculus with 18 samples.

Results

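NF-κB is a family of dimeric transcription factors that inhibitor proteins hold in the cytoplasm of resting cells, and the genes described here encode its 5 subunits and 5 of its inhibitors and IκB-like regulators, called inhibitors for short although the nuclear members can also help to activate genes. They were chosen by gene symbol from the entries of the deposited expression table of a bulk RNA-seq study of mouse bone marrow-derived dendritic cells (DCs). Each of the 10 symbols (*Nfkb1*, *Nfkb2*, *Rel*, *Rela*, *Relb*, *Nfkbia*, *Nfkbib*, *Nfkbie*, *Nfkbiz* and *Bcl3*) matched a single entry, which makes 10 of 62197 genes. All 10 had at least 10 normalized counts in each of the 18 libraries, so that all 10 were among the 17875 genes tested.

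The study asked whether DCs sense the deformation of their shape through the phospholipase cPLA_2_, encoded by *Pla2g4a*. cPLA_2_ WT cells and cPLA_2_ KO cells, the latter from *Pla2g4a* fl/fl mice crossed with *Itgax-cre* (Cd11c-cre) animals, were grown from bone marrow for 10 days with granulocyte–macrophage colony-stimulating factor. Since this Cre is driven by *Itgax*, deletion depends on the activity of a promoter that is turned on as cells become DCs, and other cells of the culture can keep the gene. Cells were left nonconfined, were held under a 3 µm ceiling and collected 4 h later, or received 100 ng ml-1 lipopolysaccharide (LPS) and were left until the next day, with 3 libraries per genotype and treatment. The sample labels give an LPS exposure of 30 min, the methods of the study a slightly shorter one, and the labels name neither the age nor the sex of the mice. The labels number the replicates without saying that they were separate animals or cultures, and the study calls them biological replicates. In either case p-values measure the spread between these libraries, which may be technical where cultures or animals were shared. Libraries held between 33027230 and 61300021 reads on genes, and the values below are the authors' gene counts divided by a size factor per library, called normalized counts. They are not scaled for gene length. The fewest reads on any of the 10 genes in a library were 289, for *Nfkbiz*, so that counting error was small.

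The targeted gene checks the genotype labels. *Pla2g4a* stood at 697, 686 and 770.4 normalized counts in the nonconfined cPLA_2_ WT and at 548, 542 and 533 in the nonconfined cPLA_2_ KO libraries, and at 1369, 1430 and 1321 in the confined cPLA_2_ WT and 923, 871 and 919.5 in the confined cPLA_2_ KO libraries. Its mRNA was therefore lower, but not absent, in every cPLA_2_ KO library of these treatments. The LPS libraries went against their genotype labels. Those labelled cPLA_2_ WT held 1005, 969 and 967 and those labelled cPLA_2_ KO held 1065, 1032 and 1028 normalized counts of *Pla2g4a*, with the higher values under the cPLA_2_ KO label (log2 fold change 0.087, adjusted p = 1 by limma). *Ddx3y*, a gene of the Y chromosome, was at 3.05, 0 and 1.97 in the nonconfined cPLA_2_ WT and 0, 1.72 and 2.37 in the confined cPLA_2_ WT libraries. It reached 949, 981 and 874 in the nonconfined cPLA_2_ KO and 1036, 920.2 and 948 in the confined cPLA_2_ KO libraries. *Xist*, which is expressed from an inactive X chromosome, was at 27953, 33681 and 30681 in the nonconfined cPLA_2_ WT, 12153, 19081 and 14328 in the nonconfined cPLA_2_ KO, 22734, 33482 and 29759 in the confined cPLA_2_ WT and 16980, 24835 and 20600 in the confined cPLA_2_ KO libraries. cPLA_2_ KO libraries of these treatments thus held RNA of both genes and cPLA_2_ WT libraries hardly any of *Ddx3y*, so that genotype and the presence of Y-linked RNA cannot be told apart. Whether a library came from several donors is not in the labels. The libraries labelled LPS cPLA_2_ WT held 1271, 0 and 662 and those labelled LPS cPLA_2_ KO held 2.12, 1476 and 783 normalized counts of *Ddx3y*, which does not follow the labels either. They fell into pairs across the labels, with close *Ddx3y* values for cPLA_2_ WT replicate 2 and cPLA_2_ KO replicate 1, for both replicates 3 and for cPLA_2_ WT replicate 1 and cPLA_2_ KO replicate 2. In the same order *Prg2* was at 14795 and 14646, at 19549 and 19714 and at 24790 and 24643. *Xist* was at 27791 and 30960, at 27224 and 21654 and at 26298 and 16450 in this order, and so lay closest in the first pair and farthest apart in the last. The first and second of these pairs had the lowest chi-square per degree of freedom among LPS libraries (5.08 and 6.08), whereas the third, at 12.2, did not stand out. Whether paired libraries share a source was not tested, and fits that averaged or paired them in this way, chosen after seeing the data, are given as alternatives. LPS libraries are named by their labels only, and the LPS comparison pools the 6 of them against the 6 nonconfined libraries.

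The labelled cell type was checked against 10 DC markers, all of which were present, with *Cd74* as the most abundant and none under 10 normalized counts. Their summed level was 490245 ± 14052 normalized counts (SD, n = 3) before and 417563 ± 14552 after confinement in cPLA_2_ WT DCs, 572589 ± 8827 before and 407418 ± 9166 after it in cPLA_2_ KO DCs. In the LPS libraries it was 606701 ± 46744 under the cPLA_2_ WT and 605909 ± 37623 under the cPLA_2_ KO label. At an adjusted p under 0.05 by limma, 1 of the 10 rose and 8 fell with confinement in cPLA_2_ WT DCs, against 28.2% and 28.4% of all genes tested. All 10 fell in cPLA_2_ KO DCs, against 23.4% of all genes. The difference between these changes was negative for 5 and positive for 0, against 15.6% and 10.2% of all genes. With LPS and the labels pooled 7 rose and 2 fell, against 37.2% and 34.3% of all genes.

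The p50, p52, c-Rel, RelA and RelB subunits pair into dimers, of which RelA, c-Rel and RelB carry the activating domain, while p50 and p52 are released from the precursors p105 and p100. The classical IκB proteins keep dimers in the cytoplasm until IκB kinase marks them for destruction, and the atypical members IκBζ and Bcl-3 bind p50 or p52 in the nucleus. Many of these genes are themselves NF-κB targets, a feedback best known for *Nfkbia*, and in DCs the pathway is a textbook step of the maturation that microbial products set off.

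The conditions stood in nearly the same order for all 10 genes. Nonconfined libraries were lowest, followed by confined cPLA_2_ KO, confined cPLA_2_ WT and LPS-treated libraries. All but *Relb* were called higher in confined than in nonconfined cPLA_2_ KO libraries (adjusted p under 0.05 by limma), as were 22.8% of all genes tested. For the genes called, the confined libraries also lay above the nonconfined ones without overlap, which is given without a share over all genes. All 10 genes were called lower in confined cPLA_2_ WT than in LPS libraries, as were 29.8% of all genes tested. Every LPS library also lay above every confined cPLA_2_ WT library for each of the 10 genes, again without a share over all genes. However, the sign of the mean difference turned for *Nfkb1*, *Nfkbie*, *Nfkbiz* and *Bcl3* when each library was scaled to the same total. Confined and LPS libraries also differed in the time after treatment. In bulk RNA, fewer cells of a type and less RNA per cell cannot be told apart.

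**Figure D1:**
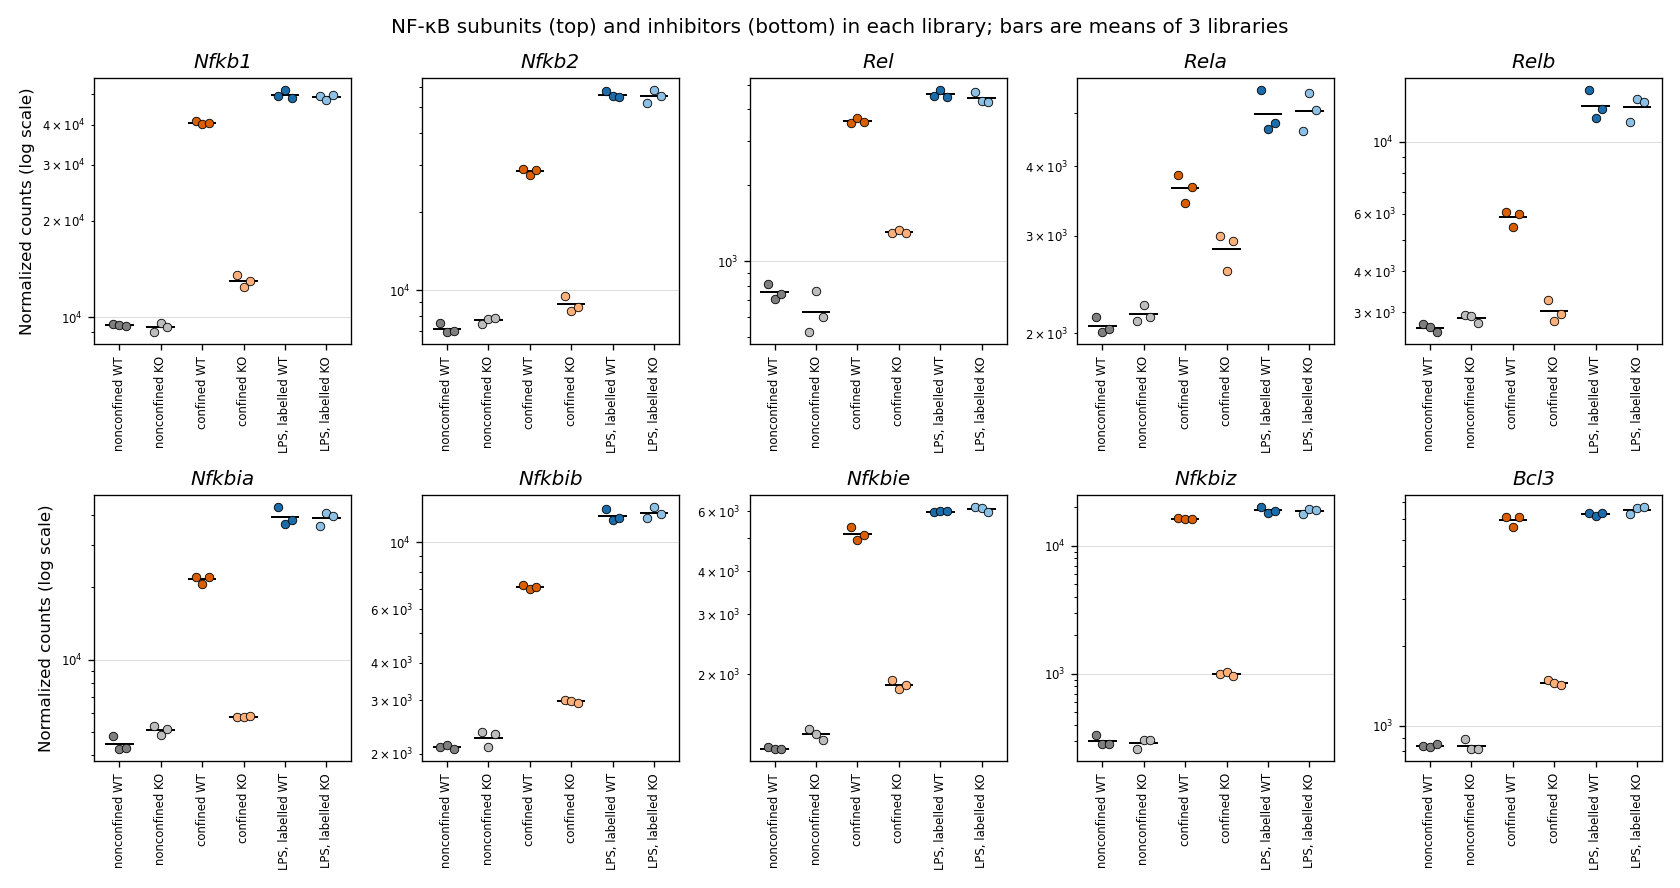
Normalized counts (log axis) of the 5 subunit genes in the upper and the 5 inhibitor genes in the lower panels, with a point for each of the 18 libraries, a bar for the mean of 3 libraries and an own axis range per gene. Confined cPLA_2_ WT libraries lie above confined cPLA_2_ KO libraries in every panel, and *Nfkbiz* spans the widest range, from 257.8 to 19885 normalized counts.

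*Nfkb1* (identifier GSMG0036102) encodes p105, the precursor of p50, and lies on the minus strand of chromosome 3 from 135290418 to 135397308 in GRCm39, with 25 exons in its canonical transcript. It stood at 9543, 9434 and 9392 normalized counts in the nonconfined cPLA_2_ WT and at 8967, 9563 and 9305 in the nonconfined cPLA_2_ KO libraries. After confinement it was at 41214, 40116 and 40477 in cPLA_2_ WT and at 13587, 12428 and 12955 in cPLA_2_ KO libraries. The genotypes overlapped before confinement and lay far apart after it, and the confined cPLA_2_ KO libraries were above all nonconfined ones but nearer to them than to the confined cPLA_2_ WT libraries. *Nfkb1* was higher by 2.10 on the log2 scale in confined cPLA_2_ WT DCs (s.e. 0.0395, adjusted p = 1.35e-20 by limma) and by 0.48 in confined cPLA_2_ KO DCs (s.e. 0.0395, adjusted p = 2e-09). The difference between these changes, the interaction between genotype and confinement, was -1.62 (95% confidence interval -1.73 to -1.50, adjusted p = 1.5e-15). In the LPS libraries *Nfkb1* ranged from 47945 to 51208 with a median of 49132, a 5.26-fold increase over nonconfined libraries (log2 fold change 2.40, adjusted p = 6.82e-25). The entry of *Ube2d3*, with a mean of 5883 normalized counts over all libraries, overlaps that of *Nfkb1* in position, and how reads in the overlap were assigned is not given in the sources used here.

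*Nfkb2* (identifier GSMG0027791), which encodes p100, the precursor of p52 and an inhibitor of RelB, is on the plus strand of chromosome 19 from 46292758 to 46300824 and has 23 exons. The nonconfined libraries held 7485, 6915 and 6994 normalized counts in cPLA_2_ WT and 7418, 7780 and 7826 in cPLA_2_ KO DCs. Confined libraries held 29119, 27510 and 28843 in cPLA_2_ WT and 9508, 8359 and 8643 in cPLA_2_ KO DCs. All confined cPLA_2_ KO values were just above the nonconfined ones, and the confined cPLA_2_ WT values lay far above both. The change with confinement was a 4-fold increase in cPLA_2_ WT DCs (log2 fold change 2.00, s.e. 0.051, adjusted p = 2.58e-18 by limma) and 1.15-fold in cPLA_2_ KO DCs (log2 fold change 0.20, adjusted p = 0.0027). The interaction was -1.80 (95% confidence interval -1.95 to -1.65, adjusted p = 1.99e-14). LPS libraries ranged from 52161 to 58040 with a median of 55254. The increase over nonconfined libraries was 7.5-fold (log2 fold change 2.91, adjusted p = 1.81e-24). Confined cPLA_2_ WT DCs thus stood 1.95-fold below LPS-treated DCs.

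*Rel* (identifier GSMG0008946), the gene of c-Rel, is on the minus strand of chromosome 11 from 23686847 to 23720995 and has 10 exons. Nonconfined cPLA_2_ WT libraries had 812, 709.5 and 740.0 normalized counts of it and nonconfined cPLA_2_ KO libraries 523, 761 and 602. Confinement libraries held 3524, 3673 and 3551 in cPLA_2_ WT and 1288, 1322 and 1289 in cPLA_2_ KO DCs. The confined cPLA_2_ KO libraries lay between the nonconfined and the confined cPLA_2_ WT libraries without overlap, and the nonconfined cPLA_2_ KO libraries were the most spread relative to their mean, with 628 ± 121 normalized counts (SD, n = 3). *Rel* was 4.75-fold higher in confined cPLA_2_ WT DCs (log2 fold change 2.25, s.e. 0.0882, adjusted p = 3.95e-15 by limma) and 2.09-fold higher in confined cPLA_2_ KO DCs (log2 fold change 1.06, adjusted p = 2.55e-09). The interaction was -1.18 (95% confidence interval -1.44 to -0.92, adjusted p = 1.85e-07). In LPS libraries *Rel* ranged from 4276 to 4736 with a median of 4490, 6.56-fold above nonconfined libraries (log2 fold change 2.71, adjusted p = 7.82e-20).

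*Rela* (identifier GSMG0027296) encodes RelA or p65, the activating partner in the best studied NF-κB dimer, and lies on the plus strand of chromosome 19 from 5687508 to 5698163 with 11 exons. Its nonconfined libraries held 2140, 2008 and 2039 normalized counts in cPLA_2_ WT and 2102, 2246 and 2140 in cPLA_2_ KO DCs. With confinement, cPLA_2_ WT libraries held 3867, 3433 and 3670 and cPLA_2_ KO libraries 2990, 2588 and 2935. *Rela* moved least of the 10 genes in cPLA_2_ WT DCs, and its confined genotypes lay closest together without overlapping. The log2 fold change was 0.82 in cPLA_2_ WT (s.e. 0.0693, adjusted p = 1.43e-09 by limma) and 0.39 in cPLA_2_ KO DCs (s.e. 0.0693, adjusted p = 9.27e-05), and the interaction was -0.44 (95% confidence interval -0.64 to -0.23, adjusted p = 0.00197). In LPS libraries *Rela* ranged from 4630 to 5484 with a median of 4926. That made 2.37-fold the level of nonconfined libraries (log2 fold change 1.24, adjusted p = 1.1e-15), again the smallest of the 10 increases.

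*Relb* (identifier GSMG0050582), whose product pairs with p52 in the noncanonical pathway and marks mature DCs, lies on the minus strand of chromosome 7 from 19340142 to 19363364 with 12 exons. It was measured at 2758, 2698 and 2605 normalized counts in the nonconfined cPLA_2_ WT and 2947, 2924 and 2786 in the nonconfined cPLA_2_ KO libraries. In confined libraries the values were 6101, 5488 and 5990 in cPLA_2_ WT and 3266, 2819 and 2972 in cPLA_2_ KO DCs. The confined cPLA_2_ KO libraries overlapped the nonconfined cPLA_2_ KO libraries, which held for no other of the 10 genes. Before confinement the cPLA_2_ KO libraries lay just above the cPLA_2_ WT libraries without overlap (log2 fold change 0.10, adjusted p = 0.433 by limma). *Relb* had a log2 fold change of 1.12 with confinement in cPLA_2_ WT DCs (s.e. 0.0707, adjusted p = 1.22e-11 by limma), while the change in cPLA_2_ KO DCs was 0.063 with a 95% confidence interval of -0.084 to 0.21 (adjusted p = 0.497). The interaction was -1.06 (95% confidence interval -1.27 to -0.85, adjusted p = 3.25e-08). In LPS libraries *Relb* ranged from 11480 to 14340 with a median of 12882 (log2 fold change 2.20 over nonconfined libraries, adjusted p = 6.43e-20). Confined cPLA_2_ WT DCs were 2.18-fold lower than LPS-treated DCs, the widest such gap among the 10 genes (log2 fold change -1.13, adjusted p = 1.41e-12).

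*Nfkbia* (identifier GSMG0012015) encodes IκBα, the inhibitor that is degraded and resynthesized fastest, and lies on the minus strand of chromosome 12 from 55536194 to 55539432 with 6 exons. Nonconfined libraries held 4775, 4225 and 4278 normalized counts in cPLA_2_ WT and 5286, 4829 and 5119 in cPLA_2_ KO DCs. Confined libraries of cPLA_2_ WT DCs held 22057, 20633 and 22190 and those of cPLA_2_ KO DCs 5738, 5733 and 5798. The nonconfined genotypes did not overlap, with the cPLA_2_ KO libraries higher, and after confinement the order was turned. *Nfkbia* was 4.89-fold higher in confined cPLA_2_ WT DCs (log2 fold change 2.29, s.e. 0.0608, adjusted p = 4.88e-18 by limma). In cPLA_2_ KO DCs it was 1.13-fold higher (log2 fold change 0.18, s.e. 0.0608, adjusted p = 0.0185), a call that was lost with TMM scaling (adjusted p = 0.0909), without nonconfined cPLA_2_ KO replicate 2 (adjusted p = 0.0824) and without confined cPLA_2_ KO replicate 3 (adjusted p = 0.0507). The interaction was -2.11 (95% confidence interval -2.29 to -1.93, adjusted p = 2.61e-14). In LPS libraries *Nfkbia* ranged from 36023 to 43133 with a median of 38858, an 8.23-fold increase (log2 fold change 3.04, adjusted p = 1.55e-23) that left LPS libraries 1.8-fold above confined cPLA_2_ WT libraries.

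*Nfkbib* (identifier GSMG0050756), the gene of IκBβ, lies on the minus strand of chromosome 7 from 28457676 to 28466069 with 6 exons. It was at 2100, 2137 and 2068 normalized counts in the nonconfined cPLA_2_ WT and 2359, 2103 and 2315 in the nonconfined cPLA_2_ KO libraries. The confined libraries reached 7212, 7034 and 7116 in cPLA_2_ WT and 3015, 2975 and 2934 in cPLA_2_ KO DCs. Libraries of a condition lay close together, and the confined conditions were separate from each other and from the nonconfined ones. *Nfkbib* had a log2 fold change of 1.76 with confinement in cPLA_2_ WT DCs (s.e. 0.0472, adjusted p = 5.6e-18 by limma) and of 0.40 in cPLA_2_ KO DCs (s.e. 0.0472, adjusted p = 5.18e-07), with an interaction of -1.36 (95% confidence interval -1.50 to -1.22, adjusted p = 5.77e-13). In LPS libraries *Nfkbib* ranged from 11872 to 13043 with a median of 12255 (log2 fold change 2.51, adjusted p = 5.85e-24).

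*Nfkbie* (identifier GSMG0023283) encodes IκBε, which retains RelA and c-Rel dimers, and lies on the plus strand of chromosome 17 from 45866625 to 45874095 with 6 exons. Before confinement it was at 1224, 1208 and 1208 normalized counts in cPLA_2_ WT and 1388, 1340 and 1287 in cPLA_2_ KO libraries. After confinement the cPLA_2_ WT libraries held 5398, 4950 and 5129 and the cPLA_2_ KO libraries 1923, 1809 and 1863. The nonconfined genotypes did not overlap, with cPLA_2_ KO libraries slightly higher, and confined cPLA_2_ WT libraries came close to the LPS libraries. *Nfkbie* was 4.25-fold higher in confined cPLA_2_ WT DCs (log2 fold change 2.09, s.e. 0.0445, adjusted p = 1.23e-19 by limma) and 1.39-fold higher in confined cPLA_2_ KO DCs (log2 fold change 0.48, adjusted p = 1.56e-08). The interaction was -1.61 (95% confidence interval -1.74 to -1.48, adjusted p = 1.26e-14). In LPS libraries *Nfkbie* ranged from 5953 to 6157 with a median of 6007 (log2 fold change 2.24, adjusted p = 1.38e-23).

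*Nfkbiz* (identifier GSMG0021793) encodes IκBζ, a nuclear protein that works with p50 on secondary response genes such as *Il6*, and lies on the minus strand of chromosome 16 from 55631738 to 55659262 with 12 exons. It was low in nonconfined libraries, at 331, 283 and 284 normalized counts in cPLA_2_ WT and 258, 304 and 307 in cPLA_2_ KO DCs. Confined cPLA_2_ WT libraries held 16332, 16112 and 16025 and confined cPLA_2_ KO libraries 1000, 1025 and 969.6. The confined cPLA_2_ WT libraries were thus near the LPS libraries, and the confined cPLA_2_ KO libraries lay between the nonconfined and the confined cPLA_2_ WT libraries with no overlap. *Nfkbiz* had the largest change of the 10 genes in each of these comparisons. Its level was 54-fold higher in confined cPLA_2_ WT DCs (log2 fold change 5.75, s.e. 0.0666, adjusted p = 3.12e-24 by limma) and 3.45-fold higher in confined cPLA_2_ KO DCs (log2 fold change 1.79, s.e. 0.0666, adjusted p = 7.56e-15). The interaction was -3.97 (95% confidence interval -4.16 to -3.77, adjusted p = 3.33e-18). In LPS libraries *Nfkbiz* ranged from 17780 to 19885 with a median of 18767, 63.8-fold above nonconfined libraries (adjusted p = 7.25e-28).

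*Bcl3* (identifier GSMG0050594), whose nuclear IκB-like product binds p50 and p52 homodimers, lies on the minus strand of chromosome 7 from 19542387 to 19556680 with 9 exons. Nonconfined values were 838, 828 and 850.0 in cPLA_2_ WT and 889, 816 and 816 in cPLA_2_ KO libraries. Confined values were 6126, 5604 and 6137 in cPLA_2_ WT and 1482, 1449 and 1419 in cPLA_2_ KO libraries. The nonconfined genotypes overlapped, and the confined cPLA_2_ WT libraries lay just under the lowest LPS library. *Bcl3* rose 7.09-fold in cPLA_2_ WT DCs (log2 fold change 2.83, s.e. 0.049, adjusted p = 3.28e-21 by limma) and 1.73-fold in cPLA_2_ KO DCs (log2 fold change 0.79, adjusted p = 2.8e-11), with an interaction of -2.04 (95% confidence interval -2.18 to -1.89, adjusted p = 1.18e-15). In LPS libraries *Bcl3* ranged from 6198 to 6656 with a median of 6360 (log2 fold change 2.93, adjusted p = 8.33e-25).

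Counted together, all 10 genes were higher in confined than in nonconfined cPLA_2_ WT DCs at an adjusted p under 0.05, the threshold used for every count, whereas 28.2% of all genes tested were called higher and 28.4% lower. For 9 of the 10 the log2 fold change was above 1, which held for 11.4% of all genes tested, and the exception was *Rela*. The median change was 2.09 over the 10 genes, 2.00 over the subunits, 2.29 over the inhibitors and -0.0055 over all genes tested. In cPLA_2_ KO DCs, 9 of 10 were higher with confinement, against 22.8% of all genes called higher and 23.4% called lower, and only *Relb* was not called. The median was 0.44 over the 10 genes and 0.010 over all genes tested. The log2 fold change was above 1 for *Rel* and *Nfkbiz*, or 2 of 10, and for 6.43% of all genes. The interaction was negative for 10 of 10, where 15.6% of all genes were called lower and 10.2% higher, and was below -1 for 9 of 10 and 6.56% of all genes. Its median was -1.61 over the 10 genes and 0.051 over all genes tested. When cPLA_2_ KO and cPLA_2_ WT DCs were compared after confinement, 10 of 10 were lower in cPLA_2_ KO DCs, against 20.6% called lower and 18.8% called higher among all genes, and 8 of 10 fell by more than 1 on the log2 scale, as did 7.31% of all genes. *Nfkbiz* was 16.2-fold lower and *Rela* 1.29-fold lower in confined cPLA_2_ KO than in confined cPLA_2_ WT DCs, the ends of this range. Scaling each library to the same total moved the median of all genes tested from -0.0055 to -0.23 for confinement in cPLA_2_ WT DCs and from 0.020 to -0.47 for LPS. With that scaling the 10 genes kept their calls in both comparisons and for the interaction, but fewer lay beyond 1. For confinement in cPLA_2_ WT DCs these were 8 in place of 9, since *Relb* came to 0.90, and for LPS 9 in place of 10, since *Rela* came to 0.75. For the interaction they were 7 in place of 9, since *Relb* came to -0.87 and *Rel* to -0.995, and *Rela* came to -0.25 (adjusted p = 0.0295). *Rela* in confined cPLA_2_ KO against cPLA_2_ WT DCs came to -0.21.

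**Figure D2:**
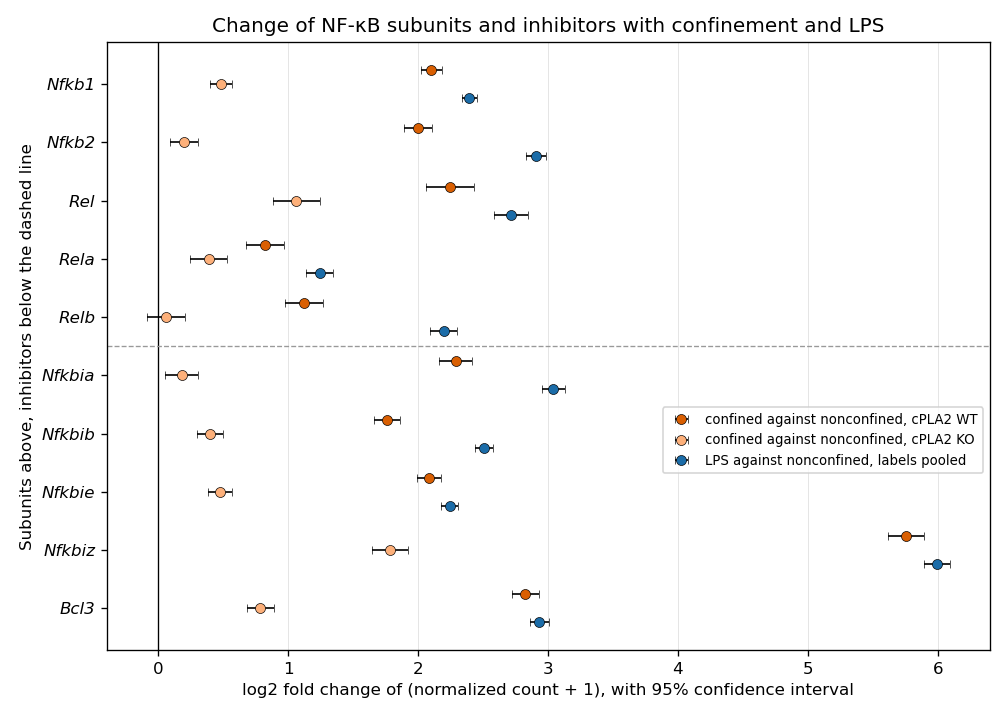
Log2 fold change of each subunit and inhibitor gene (x axis) with its 95% confidence interval for confinement in cPLA_2_ WT DCs, confinement in cPLA_2_ KO DCs and LPS with both genotype labels pooled. The interval of *Relb* in cPLA_2_ KO DCs crosses 0, and that of *Nfkbiz* in cPLA_2_ WT DCs, at 5.62 to 5.89, lies farthest to the right of the confinement intervals.

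Between the nonconfined genotypes few of the 10 genes were called, as was the case for genes in general. Of the 10 genes, *Nfkbia* alone was called, at 5078 ± 232 (SD, n = 3) normalized counts in cPLA_2_ KO against 4426 ± 303 (SD, n = 3) in cPLA_2_ WT DCs (log2 fold change 0.20, adjusted p = 0.0437 by limma), where 4.78% of all genes tested were called higher and 4.11% lower. This call was lost with no filter on low values (adjusted p = 0.0825), with the same total per library (adjusted p = 0.0509), with TMM scaling (adjusted p = 0.0749) and without cPLA_2_ WT replicate 2 (adjusted p = 0.184) or 3 (adjusted p = 0.164) or cPLA_2_ KO replicate 1 (adjusted p = 0.185) or 3 (adjusted p = 0.128). *Rel* had a log2 fold change of -0.28 (adjusted p = 0.054) and *Nfkbie* of 0.14 (adjusted p = 0.0529), both short of the threshold. *Rel* passed it with the filter of 100 (adjusted p = 0.0434), equal totals (adjusted p = 0.0417), TMM scaling (adjusted p = 0.0452), DESeq2 on the recovered reads (adjusted p = 0.0315) and without nonconfined cPLA_2_ KO replicate 2 (adjusted p = 0.000371). *Nfkbie* passed it with the filter of 100 (adjusted p = 0.0353), edgeR (adjusted p = 0.0467) and DESeq2 (adjusted p = 0.0385). With a library left out the change of *Rel* ran from -0.42 to -0.15, and without nonconfined cPLA_2_ KO replicate 1 its adjusted p was 0.328. edgeR did not call *Rel*. With equal totals or TMM the single gene called was thus *Rel* in place of *Nfkbia*. *Nfkbib* passed it without nonconfined cPLA_2_ KO replicate 2 (adjusted p = 0.0332).

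LPS raised all 10 genes with the labels pooled, against 37.2% of all genes tested called higher and 34.3% called lower. All 10 had a log2 fold change above 1 (9 with equal totals), as did 15.6% of all genes, with a median of 2.61 over the 10 genes and 0.020 over all. Taken by label, 10 of 10 were higher in the libraries labelled LPS cPLA_2_ WT than in nonconfined cPLA_2_ WT libraries, with 33.4% of all genes called higher, and 10 of 10 were higher in those labelled LPS cPLA_2_ KO than in nonconfined cPLA_2_ KO libraries, with 33.4% again. Between the libraries labelled LPS cPLA_2_ KO and LPS cPLA_2_ WT, limma called 0 of 10 genes, and 0% of all genes tested were called higher and 0% lower. At an unadjusted p under 0.05 it found 0 of 10 genes and 890 of 17875, while edgeR and DESeq2 on the recovered reads likewise called 0 of 10 and 0 of 17875, with 812 and 831 genes at an unadjusted p under 0.05. With a term for the pairs limma called 0 of 10 and 0 of 17875, with 1166 genes at an unadjusted p under 0.05. The log2 fold changes of the 10 genes between the labels ranged from -0.051 for *Rel* to 0.050 for *Bcl3*. For the interaction of LPS with the genotype label, limma called 0 of 10 genes, against 0.313% of all genes called higher and 0.962% lower. *Nfkbia* had an unadjusted p of 0.0203 (adjusted p = 0.286), and it was the only one of the 10 genes under 0.05. edgeR and DESeq2 called 0 of 10 as well, and without nonconfined cPLA_2_ KO replicate 2 the interaction of *Rel* was called (log2 difference 0.37, adjusted p = 0.0351). As the data go against these labels, no statement on genotype is drawn from the LPS libraries.

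Confined cPLA_2_ WT DCs were then set against the 6 LPS libraries. Collection differed too, at 4 h with confinement and the next day with LPS, so that stimulus and time cannot be told apart. All 10 genes were lower in confined cPLA_2_ WT DCs, where 29.8% of all genes tested were called lower, and *Relb* alone fell below -1, as did 7.84% of all genes. The median was -0.39 over the 10 genes and -0.014 over all genes tested. The log2 fold change was -1.13 for *Relb*, -0.96 for *Nfkb2*, -0.85 for *Nfkbia* and -0.80 for *Nfkbib*. It was smaller for *Rela* (-0.45), *Rel* (-0.33), *Nfkb1* (-0.28), *Nfkbie* (-0.23) and *Nfkbiz* (-0.22). *Bcl3* changed by -0.11 (adjusted p = 0.0366). This call was lost with no filter (adjusted p = 0.0559), TMM scaling (adjusted p = 0.131), edgeR (log2 fold change -0.036, adjusted p = 0.474) and DESeq2 (adjusted p = 0.135) and with the LPS libraries averaged in pairs (adjusted p = 0.0817). It was also lost without confined cPLA_2_ WT replicate 2 (adjusted p = 0.267), without replicate 1 (adjusted p = 0.0575) or 3 (adjusted p = 0.0631) of the libraries labelled LPS cPLA_2_ WT and without replicate 2 (adjusted p = 0.0654) or 3 (adjusted p = 0.0705) of those labelled LPS cPLA_2_ KO. The comparison also depended on scaling. With the same total per library the median of all genes rose to 0.27, *Nfkb2* (-0.67), *Rela* (-0.16), *Relb* (-0.84), *Nfkbia* (-0.56) and *Nfkbib* (-0.51) stayed lower with none below -1, *Rel* at -0.038 and *Nfkb1*, *Nfkbie* and *Nfkbiz* above 0 were not called, and *Bcl3* was higher by 0.18 (adjusted p = 0.000355). Confined cPLA_2_ KO DCs were below the LPS libraries for 10 of 10 genes, against 32.5% of all genes, and by more than 1 on the log2 scale for 9 of 10, against 12.9% of all genes, and equal totals kept these counts with *Rela* at -0.38. *Nfkbiz* was 18.8-fold and *Rela* 1.76-fold lower in that comparison.

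Levels can be set side by side between genes only per length, so normalized counts were divided by the summed length in kb of each gene's annotated exons (GENCODE, GRCm39), which counts exons of all isoforms. On this scale *Nfkb2* led the subunits in nonconfined cPLA_2_ WT DCs with 903 normalized counts per kb, ahead of *Nfkb1* with 736, *Rela* with 629.9 and *Relb* with 528. *Rel* was last with 97.2. Before division by length, *Nfkb1* stood above *Nfkb2* in the same libraries, with means of 9456 and 7131 normalized counts. The order of these genes thus depends on the lengths used, 12848 bases for *Nfkb1* and 7901 for *Nfkb2*. Reads were counted on another annotation, Mouse FAST DB, whose lengths were not used. *Rela* made up 21.8% ± 0.18 of the summed level of the 5 subunits per kb (SD, n = 3) in nonconfined cPLA_2_ WT DCs, 11.8% ± 0.38 in confined cPLA_2_ WT DCs but 23.1% ± 0.8 in confined cPLA_2_ KO DCs. Its share was 9.76% ± 0.51 in the libraries labelled LPS cPLA_2_ WT and 9.98% ± 0.38 in those labelled LPS cPLA_2_ KO. *Nfkb1* took 25.4% ± 0.53 in nonconfined and 33.3% ± 0.55 in confined cPLA_2_ WT DCs, but 24.8% ± 1.2 and 24.7% ± 1.3 in the LPS libraries. For *Nfkb2* the share went from 31.2% ± 0.46 to 38% ± 0.2 in cPLA_2_ WT DCs, and it was 45.4% ± 0.2 and 45.3% ± 0.65 in the LPS libraries. *Relb* had 18.3% ± 0.34 in nonconfined and 12.1% ± 0.35 in confined cPLA_2_ WT DCs, with 16.3% ± 1.1 and 16.2% ± 0.76 in the LPS libraries. In confined cPLA_2_ KO DCs the shares were 26.9% ± 0.38 for *Nfkb1*, 29.8% ± 0.53 for *Nfkb2* and 15.8% ± 0.29 for *Relb*. The subunit pool thus held a larger share of *Nfkb1* in confined cPLA_2_ WT than in LPS-treated DCs and a smaller share of *Nfkb2* and *Relb*, while *Relb* had its largest shares in nonconfined cells. These are measured shares without a test.

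Among the inhibitors *Nfkbia* made up most of the summed level per kb in every condition, from 57.5% ± 0.64 (SD, n = 3) in confined cPLA_2_ WT DCs to 64.4% ± 1.1 in the libraries labelled LPS cPLA_2_ WT. *Nfkbib* was second in nonconfined cPLA_2_ WT DCs with 24.2% ± 1.1 and had 15.5% ± 0.32 in confined cPLA_2_ WT DCs but 24.6% ± 0.26 in confined cPLA_2_ KO DCs. The share of *Nfkbiz* was 1.45% ± 0.066 before and 14.8% ± 0.43 after confinement in cPLA_2_ WT DCs, 1.26% ± 0.16 before and 3.46% ± 0.1 after it in cPLA_2_ KO DCs. It was 10.7% ± 0.21 and 10.6% ± 0.1 in the LPS libraries, so that the share of this nuclear regulator was highest in confined cPLA_2_ WT DCs, where its normalized count was not. With equal totals, the level of *Nfkbiz* in confined cPLA_2_ WT DCs was 0.072 above LPS on the log2 scale (adjusted p = 0.288 by limma).

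**Figure D3:**
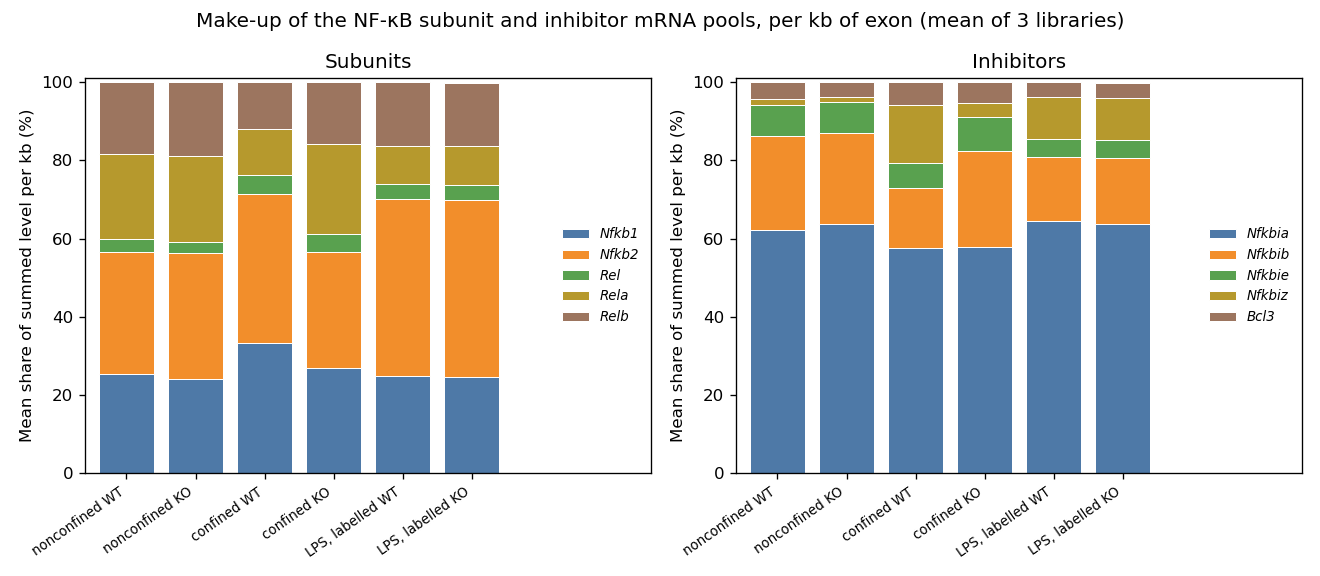
Mean share (y axis, percent) of each gene in the summed level per kb of the 5 subunits on the left and the 5 inhibitors on the right, for the 6 conditions with 3 libraries each. With confinement *Nfkbiz* grows from 1.45% to 14.8% of the summed level on the right in cPLA_2_ WT DCs and from 1.26% to 3.46% in cPLA_2_ KO DCs. On this scale per kb, which depends on the exon lengths used, *Nfkb2* is the largest share of the subunit pool in every condition.

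The 10 genes followed each other closely across the 18 libraries, as a description of libraries that fall into 6 conditions and share them. Pearson's r of log2(normalized count + 1) over the 45 pairs ranged from 0.915 for *Relb* and *Nfkbiz* to 0.999 for *Nfkbiz* and *Bcl3*. Outside the 10 genes, among 10544 genes with a symbol and a mean of at least 100 normalized counts, *Nfkb1* was most like *Dusp2* (r = 0.9990, n = 18 libraries) and *Tnfaip3* (r = 0.9986). *Nfkb2* was most like *Cxcl16* and *Ntng2*, *Rel* like *Map3k14* and *Nod2*, *Rela* like *Zfp263* and *Pafah1b1*, and *Relb* like *Mapkapk2* and *Lcp2*. Of the inhibitors, *Nfkbia* was most like *Ntng2* and *Adora2b*, *Nfkbib* like *Sod2* and *Rhoc*, *Nfkbie* like *Tnfaip3* and *Gpr132*, *Nfkbiz* like *B3gnt5* and *Scin*, and *Bcl3* like *Serpinb2* and *B3gnt5*.

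The other genes of the pathway were taken from 4 lists, whose counts stand beside 28.2% of all genes tested called higher and 28.4% lower for confinement in cPLA_2_ WT DCs, 10.2% and 15.6% for the interaction and 37.2% and 34.3% for LPS. Of 22 upstream kinases and adaptors, 16 rose and 4 fell with confinement in cPLA_2_ WT DCs (median 0.52), and the interaction was negative for 11 and positive for 2 (median -0.21). The noncanonical kinase gene *Ikbke* rose from 2250 ± 206.5 normalized counts (SD, n = 3) in nonconfined to 7489 ± 40.4 in confined cPLA_2_ WT DCs, and was at 1935 ± 20.4 in confined cPLA_2_ KO DCs. *Ikbkb*, the gene of the IκB kinase subunit IKKβ, was at 4508, 4380 and 4394 normalized counts in confined cPLA_2_ WT and 3245, 3118 and 3176 in confined cPLA_2_ KO libraries, with an interaction of -0.53 (adjusted p = 2.37e-06 by limma), and its change with LPS was 1.32 (adjusted p = 4.68e-19). Of 14 other inhibitors and brakes, 10 rose and 2 fell in confined cPLA_2_ WT DCs (median 0.66), and the interaction was negative for 8 (median -0.39). *Tnfaip3*, which encodes the ubiquitin-editing enzyme A20, went from 1171 ± 25.0 to 23715 ± 299.8 normalized counts (SD, n = 3) in cPLA_2_ WT DCs and stood at 2526 ± 100.4 in confined cPLA_2_ KO DCs. Of 16 receptors and ligands that feed the pathway, 10 rose and 3 fell in confined cPLA_2_ WT DCs (median 0.55), and the interaction was negative for 10 and positive for 1 (median -0.65). The positive one was *Tlr4*, the LPS receptor gene, with 10284 ± 214.6 normalized counts (SD, n = 3) after confinement of cPLA_2_ KO and 7670 ± 249.2 after confinement of cPLA_2_ WT DCs. *Cd40* stood at 4924 ± 119.6 in confined cPLA_2_ WT DCs but 472.6 ± 28.3 in confined cPLA_2_ KO DCs (SD, n = 3). Of 32 textbook targets, 31 rose and 1, *Mmp9*, fell in confined cPLA_2_ WT DCs (median 2.11), and the interaction was negative for 31 (median -1.91). With LPS, 17 kinases and adaptors, 10 brakes, 10 receptors and ligands and 31 targets rose, and 4, 2, 3 and 1 fell, with medians of 0.88, 0.46, 1.14 and 3.42.

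Such cultures can also yield granulocytes and macrophages, from which the study separated DCs by taking the semiadherent fraction. Markers of these and other cell types moved with the same comparisons. Of all genes tested, 28.2% were called higher and 28.4% lower with confinement in cPLA_2_ WT DCs, and 22.8% and 23.4% in cPLA_2_ KO DCs. Between confined genotypes 18.8% were called higher and 20.6% lower in cPLA_2_ KO DCs. For LPS the shares were 37.2% and 34.3% with pooled labels. By label they were 33.4% and 29.4% for cPLA_2_ WT and 33.4% and 30.1% for cPLA_2_ KO. All 9 neutrophil markers fell with confinement in cPLA_2_ WT DCs and 4 of 9 in cPLA_2_ KO DCs, and all 9 were higher in confined cPLA_2_ KO than in confined cPLA_2_ WT DCs. Their summed level, led by *S100a9*, was 241641 ± 2596 normalized counts (SD, n = 3) before and 148487 ± 4928 after confinement in cPLA_2_ WT DCs, 353134 ± 19040 before and 336414 ± 8506 after it in cPLA_2_ KO DCs, and 297045 ± 10268 and 294504 ± 17827 in the libraries labelled LPS cPLA_2_ WT and LPS cPLA_2_ KO. The 7 eosinophil markers, led by *Prg2*, summed to 33272 ± 82.3 before and 9293 ± 315 after confinement in cPLA_2_ WT DCs, 78980 ± 3044 before and 25023 ± 435 after it in cPLA_2_ KO DCs, and to 37624 ± 9984 and 37916 ± 10133 in the LPS libraries by label. With confinement 6 of the 7 fell in either genotype. With LPS and the labels pooled 6 of the 7 fell. By label, 1 fell against nonconfined cPLA_2_ WT libraries (median 0.16) and 5 against nonconfined cPLA_2_ KO libraries (median -1.14). The 8 macrophage markers, led by *Adgre1*, summed to 19045 ± 223 before and 17472 ± 246 after confinement in cPLA_2_ WT DCs, 23871 ± 758 before and 19252 ± 680.1 after it in cPLA_2_ KO DCs, and to 34419 ± 4004 and 33555 ± 3783 in the LPS libraries by label. In confined cPLA_2_ WT DCs 1 of the 8 rose and 4 fell, and with LPS and the labels pooled 3 rose and 5 fell (median -0.37). By label, 3 rose and 3 fell against nonconfined cPLA_2_ WT libraries, and 3 rose and 5 fell against nonconfined cPLA_2_ KO libraries. The higher sum with LPS came mostly from *Marco*, at 144 to 776 normalized counts in nonconfined and 9157 to 11519 in LPS libraries, and from *Adgre1*, at 6294 to 7615 and 9618 to 14322. The 8 mast cell and basophil markers summed to 10579 ± 92.2 before and 16723 ± 349 after confinement in cPLA_2_ WT DCs, 15403 ± 259 before and 8960 ± 163 after it in cPLA_2_ KO DCs, and to 20425 ± 1071 and 20772 ± 1164 in the LPS libraries by label. In confined cPLA_2_ WT DCs 2 of the 8 rose and 6 fell, and *Hdc*, the most abundant over all libraries, went from 735.5 ± 7.42 to 12370 ± 272. With LPS and the labels pooled 2 rose and 6 fell (median -0.24). By label, 2 rose and 2 fell against nonconfined cPLA_2_ WT libraries, and 1 rose and 6 fell against nonconfined cPLA_2_ KO libraries. *Hdc* was at 730.0 to 1071 normalized counts in nonconfined and 9250 to 12836 in LPS libraries. The 7 markers of T, B and NK cells summed to 266 ± 24.2 before and 114 ± 3.92 after confinement in cPLA_2_ WT DCs, 340.6 ± 9.14 before and 182 ± 22.8 after it in cPLA_2_ KO DCs, and to 176 ± 9.78 and 178 ± 43.2 in the LPS libraries by label, with *Cd3d* as the most abundant over all libraries and *Ms4a1* and *Ncr1* under 10 normalized counts as a mean over all libraries. The part of these cells in the changes of the 10 genes was not tested.

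Promoter sequences are shown as background, since several of the 10 genes are textbook targets of the factor they encode. Whether the matches below play a part in the changes of these genes was not tested. RefSeq promoters (build GRCm38.p6, which differs from the build of the expression table, from 250 bases before to 50 bases after the start) were matched by symbol for 7 of the 10 genes, with 3 promoters for *Nfkb2* and 1 for each of *Rel*, *Rela*, *Nfkbia*, *Nfkbib*, *Nfkbie* and *Bcl3*, while *Nfkb1*, *Relb* and *Nfkbiz* had no entry. The κB consensus GGGRNNYYCC (R for A or G, Y for C or T, N for any base) was searched on both strands. It was found in 7 of these 9 promoters, which belong to 5 of the 7 genes, and in 8.46% of all 32851 promoters of 300 bases. The windows of *Rela* and *Nfkbib* held no match to these letters, and sites that depart from them were not searched. A match of the *Nfkb2* promoter shown lies also in the third *Nfkb2* window, which overlaps it. Capitals mark the matches, and overlapping matches run together. The promoters are those of *Nfkb2* (chr19:46305445-46305744, plus strand), *Rel* (chr11:23770920-23771219, minus strand), *Rela* (chr19:5637291-5637590, plus strand), *Nfkbia* (chr12:55492598-55492897, minus strand), *Nfkbie* (chr17:45555450-45555749, plus strand) and *Bcl3* (chr7:19822706-19823005, minus strand), each written in the direction of transcription.
Nfkb2: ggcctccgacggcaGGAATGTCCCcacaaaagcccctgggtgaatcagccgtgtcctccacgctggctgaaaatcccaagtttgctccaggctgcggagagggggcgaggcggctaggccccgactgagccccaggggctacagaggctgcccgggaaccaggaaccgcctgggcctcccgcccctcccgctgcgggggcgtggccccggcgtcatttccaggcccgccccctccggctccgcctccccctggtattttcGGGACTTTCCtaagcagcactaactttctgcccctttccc
Rel: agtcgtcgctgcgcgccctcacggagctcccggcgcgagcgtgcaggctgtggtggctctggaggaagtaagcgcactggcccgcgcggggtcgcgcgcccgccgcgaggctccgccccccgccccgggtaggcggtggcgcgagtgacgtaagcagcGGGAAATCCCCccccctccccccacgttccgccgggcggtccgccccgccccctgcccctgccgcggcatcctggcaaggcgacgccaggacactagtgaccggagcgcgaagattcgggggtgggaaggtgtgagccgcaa
Rela: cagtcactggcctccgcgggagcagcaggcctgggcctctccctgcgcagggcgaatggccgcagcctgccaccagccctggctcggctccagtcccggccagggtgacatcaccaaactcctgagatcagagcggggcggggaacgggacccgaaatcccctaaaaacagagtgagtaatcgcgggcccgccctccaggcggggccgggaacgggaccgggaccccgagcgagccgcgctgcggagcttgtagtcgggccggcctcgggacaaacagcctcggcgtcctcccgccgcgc
Nfkbia: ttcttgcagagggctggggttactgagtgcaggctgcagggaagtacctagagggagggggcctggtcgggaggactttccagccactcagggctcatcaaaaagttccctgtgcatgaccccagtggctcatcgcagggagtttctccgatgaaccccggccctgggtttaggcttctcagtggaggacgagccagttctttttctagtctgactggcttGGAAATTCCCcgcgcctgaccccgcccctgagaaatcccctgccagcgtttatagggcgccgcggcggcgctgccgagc
Nfkbie: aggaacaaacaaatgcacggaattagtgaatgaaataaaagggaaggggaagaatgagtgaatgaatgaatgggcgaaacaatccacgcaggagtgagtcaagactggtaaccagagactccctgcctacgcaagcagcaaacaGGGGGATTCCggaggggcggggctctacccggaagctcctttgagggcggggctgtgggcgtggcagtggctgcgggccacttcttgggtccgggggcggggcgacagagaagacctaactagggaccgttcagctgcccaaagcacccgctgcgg
Bcl3: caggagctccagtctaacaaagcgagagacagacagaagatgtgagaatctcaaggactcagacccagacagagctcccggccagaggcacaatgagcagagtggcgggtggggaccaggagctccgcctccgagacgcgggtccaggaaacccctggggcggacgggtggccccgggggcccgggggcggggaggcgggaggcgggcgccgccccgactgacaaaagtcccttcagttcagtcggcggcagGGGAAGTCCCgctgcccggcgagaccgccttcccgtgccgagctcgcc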

How the data were processed

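The authors mapped reads of strand-specific poly(A) libraries with STAR 2.7.5a to mm39, counted them with featureCounts 1.5.0 on the Mouse FAST DB annotation and divided the counts by DESeq2 size factors, per the study's methods and the submitters' processing notes. The deposited table holds this signal, called normalized counts here. Dividing each library's values by their smallest step gave whole reads for 100% of values (tolerance 1e-06, largest deviation 2.7e-09). Whether the counting used strand is not given in the sources used here.

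These values, as log2 with a pseudocount of 1, went into limma 3.58.1 in R 4.3.3 (lmFit, contrasts.fit, eBayes with a trend) in a single fit of all 18 libraries with a mean per condition. A gene was tested if 3 or more libraries held 10 or more normalized counts of it, and Benjamini-Hochberg adjustment ran over the 17875 such genes in each comparison. A fold change on this scale understates the change of genes with few counts. No pair of libraries agreed within sampling noise, since the lowest chi-square per degree of freedom over 153 pairs was 3.91.

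The 10 genes were named in every comparison. From each pathway list (kinases and adaptors, other inhibitors and brakes, receptors and ligands, textbook targets) the named genes were drawn from the up to 2 largest increases and decreases among genes called for confinement in cPLA_2_ WT DCs, for the interaction and for LPS, plus *Ikbkb*, and for each of the 10 genes the 2 most correlated genes were named. The 10 genes and the lists were chosen with earlier results of these data known. As alternatives, the pseudocount was set to 0.5 or 5, the filter was dropped or raised to 100, libraries were scaled to equal totals or by TMM, edgeR 4.0.16 and DESeq2 1.42.0 were run on the recovered reads, only the conditions compared were fitted, the replicate number was added to the model and each library was left out in turn. Other rules for a call were a log2 fold change beyond 1 on top of the adjusted p and a fold change of 1.5 with an unadjusted p of 0.05. Fits without the 6 LPS libraries, with these averaged in 3 pairs across the labels, or with a term for the pairs, were chosen after seeing the data. Figures were drawn with matplotlib 3.10.9.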

Additional observations from a re-analysis of the deposited data

Results flagged for a closer look

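The change with confinement differed between the genotypes for all 10 genes in limma's test of the interaction, and throughout cPLA_2_ KO DCs had the smaller change. On the log2 scale the difference was -1.62 for *Nfkb1*, -1.80 for *Nfkb2*, -1.18 for *Rel*, -0.44 for *Rela* and -1.06 for *Relb* among the subunits. With equal totals *Rela* came to -0.25, *Rel* to -0.995 and *Relb* to -0.87. Among the inhibitors it was -2.11 for *Nfkbia*, -1.36 for *Nfkbib*, -1.61 for *Nfkbie*, -3.97 for *Nfkbiz* and -2.04 for *Bcl3*. In these libraries genotype cannot be told apart from the presence of Y-linked RNA, and the part of the neutrophil and eosinophil markers, whose levels differed between the genotypes, was not tested. The part of the DC markers, most of which fell with confinement in both genotypes, was not tested either.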

How the results depend on the processing

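Calls for confinement in cPLA_2_ WT DCs, the interaction, cPLA_2_ KO against cPLA_2_ WT DCs after confinement, LPS and confined cPLA_2_ KO DCs against LPS held for all 10 genes under every change of scaling, filter or tool and with each library left out. Adding the replicate number as a block gave the same counts in every comparison (10 for confinement in cPLA_2_ WT, 9 in cPLA_2_ KO DCs), and the fit without LPS libraries, chosen after seeing the data, gave the same counts in the comparisons that need none. Of the fits with LPS libraries in pairs, also chosen after seeing the data, averaging kept 10 genes for LPS and for confined cPLA_2_ KO DCs against LPS and 9 for confined cPLA_2_ WT DCs against LPS, and the term for pairs kept 0 between labels and 0 for their interaction with LPS.

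For nonconfined cPLA_2_ KO against cPLA_2_ WT DCs the count of called genes was 1, and it became 0 with no filter, 3 with the filter of 100, 2 with edgeR, 3 with DESeq2, 0 with a log2 fold change beyond 1 and 0 with the 1.5-fold rule, and it ran from 0 to 3 with libraries left out. For confinement in cPLA_2_ KO DCs 9 became 8 with TMM, 2 with a log2 fold change beyond 1 and 3 with the 1.5-fold rule. For confined cPLA_2_ WT DCs against LPS 10 became 6 with equal totals, of which *Bcl3* was higher and the rest lower. The count was 9 with no filter, TMM, edgeR or DESeq2, and *Bcl3* was the gene lost in each of these settings. It was 1 with a log2 fold change beyond 1 and 4 with the 1.5-fold rule. For the interaction of LPS and label the count ran from 0 to 1 with libraries left out.

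With equal totals the interaction of *Rela* went from -0.44 to -0.25, and its change with LPS from 1.24 to 0.75. Some small differences changed sign. With equal totals, confined cPLA_2_ WT against LPS became 0.00965 for *Nfkb1*, 0.0599 for *Nfkbie*, 0.0717 for *Nfkbiz* and 0.18 for *Bcl3*, and nonconfined cPLA_2_ KO against cPLA_2_ WT became -0.0325 for *Bcl3*. With TMM the latter was -0.0042 and the interaction of LPS and label for *Nfkb1* was -0.00114, or -0.000292 with edgeR. With libraries left out, nonconfined cPLA_2_ KO against cPLA_2_ WT ran from -0.0934 to 0.0314 for *Nfkbiz* and from -0.0398 to 0.022 for *Bcl3*. The interaction of LPS and label ran from -0.0183 to 0.0286 for *Nfkb1*, from -0.106 to 0.0184 for *Rela* and from -0.044 to 0.0809 for *Nfkbiz*. The difference between LPS labels ran from -0.0378 to 0.000778 for *Nfkb1*, from -0.0552 to 0.0219 for *Nfkb2*, from -0.0379 to 0.087 for *Rela*, from -0.0788 to 0.062 for *Relb*, from -0.0656 to 0.0517 for *Nfkbia* and from -0.0393 to 0.0258 for *Nfkbiz*.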
